A study of Rattus norvegicus with 9 samples.

Results

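The transcripts of 10 genes of autophagy and of the lysosome were followed across 9 RNA-seq libraries of neonatal rat ventricular myocytes: Ulk1, Becn1, Map1lc3b, Gabarapl1, Sqstm1, Tfeb, Lamp1, Lamp2, Ctsd and Ctsl. They were taken by gene symbol from the deposited count and RPKM tables. The choice of symbols was made with earlier results of these data known. All 10 were found among the 28935 genes of the count table and passed the filter on low counts that left 14151 genes for testing. The heart muscle cells, isolated from newborn Sprague Dawley rats (1 or 2 days old), spent 48 h in medium with 3% fetal bovine serum. Each well then received 8 µL of adenovirus in 1 mL of medium without serum for 48 h. The virus carried GFP (the control), Nfya or Nfe2l1, with 3 libraries each. All groups therefore shared the serum withdrawal and an adenoviral infection, and no uninfected or serum-fed group is part of these comparisons. Whether the 3 libraries of a virus came from separate isolations of cells is not stated, so p-values measure how these libraries vary, and that variation may be technical.

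Autophagy delivers cytoplasm and organelles to the lysosome for breakdown. The kinase ULK1 starts the formation of a membrane sheet, a lipid kinase complex built on Beclin 1 (Becn1) marks it with PI3P, and ubiquitin-like proteins of the ATG8 family (LC3B from Map1lc3b, and GABARAPL1) are attached to it. SQSTM1, also called p62, binds ubiquitinated cargo and ATG8 proteins and is itself degraded with the cargo. The closed vesicle fuses with a lysosome, whose membrane is lined by LAMP1 and LAMP2 and whose lumen holds proteases such as cathepsin D (Ctsd) and cathepsin L (Ctsl). TFEB is a basic helix-loop-helix factor of the MiT/TFE family that activates lysosomal and autophagy genes and that the nutrient kinase mTORC1 holds in the cytoplasm. In heart muscle the pathway is known for clearing damaged mitochondria, and loss of LAMP2 causes Danon disease, a cardiomyopathy with autophagic vacuoles. NFYA is the DNA-binding subunit of NF-Y, a factor that recognises CCAAT boxes. NFE2L1 is a CNC-family factor that binds antioxidant response elements, for which the core TGACNNNGC stands here. TFEB and its relatives bind E-boxes that contain CACGTG. Transcript levels do not measure the rate of autophagy.

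RefSeq promoter windows (250 bases before to 50 after the annotated start, rat build GRCr8) were held for 9 of the 10 genes, all but Becn1. The 250 bases before the start of 4 genes are given, read 5′ to 3′ on the gene's own strand. Lamp1 and Ctsd are shown for their E-boxes, and Sqstm1 and Tfeb as genes whose transcripts were lower under at least 1 virus and whose windows held none of the 3 motifs. Capitals mark each match to CCAAT, TGACNNNGC or CACGTG on either strand.
Lamp1, chr16:83075064-83075313, minus strand: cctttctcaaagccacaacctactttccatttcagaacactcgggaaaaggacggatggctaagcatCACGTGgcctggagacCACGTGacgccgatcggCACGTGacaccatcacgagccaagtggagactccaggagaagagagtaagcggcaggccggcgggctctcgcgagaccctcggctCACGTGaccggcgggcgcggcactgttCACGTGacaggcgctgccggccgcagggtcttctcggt
Ctsd, chr1:206968822-206969071, minus strand: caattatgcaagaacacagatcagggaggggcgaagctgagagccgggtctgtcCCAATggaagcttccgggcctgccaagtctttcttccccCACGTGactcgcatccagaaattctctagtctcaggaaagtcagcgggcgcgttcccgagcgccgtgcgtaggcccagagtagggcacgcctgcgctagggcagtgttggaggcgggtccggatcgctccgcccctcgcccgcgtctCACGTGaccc
Sqstm1, chr10:35037751-35038000, minus strand: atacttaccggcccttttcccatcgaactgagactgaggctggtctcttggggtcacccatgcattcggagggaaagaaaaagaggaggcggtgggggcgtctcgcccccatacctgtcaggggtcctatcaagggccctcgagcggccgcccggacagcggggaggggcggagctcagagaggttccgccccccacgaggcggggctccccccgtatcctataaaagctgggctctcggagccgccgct
Tfeb, chr9:20703125-20703374, minus strand: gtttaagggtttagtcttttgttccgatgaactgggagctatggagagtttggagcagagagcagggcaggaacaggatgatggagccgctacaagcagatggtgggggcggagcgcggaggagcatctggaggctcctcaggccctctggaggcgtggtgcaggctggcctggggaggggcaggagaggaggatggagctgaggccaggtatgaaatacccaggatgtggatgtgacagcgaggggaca
Lamp1 held 5 copies of CACGTG and Ctsd 2. Among all 33469 windows, 6.42% held at least 1 copy of CACGTG, 0.52% held at least 2, and the Lamp1 window was the only 1 with at least 5. CCAAT, present in 37.5% of all windows, was found once each in the windows of Lamp2, Ctsd and Ctsl. TGACNNNGC, present in 12.1% of all windows, was found once in Map1lc3b and 2 times each in Ctsd and Ctsl. The copies of this motif in Ctsd and the 1 in Map1lc3b lay in or overlapped the bases after the start. In Ctsl a CCAAT match (bases -90 to -86 from the start) and a TGACNNNGC match (bases -86 to -78) shared a base. The windows of Ulk1, Gabarapl1, Sqstm1 and Tfeb held none of the 3. Such matches describe letters in a short window and do not show binding, and their absence says nothing of binding elsewhere.

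Library totals ran from 5712123 counts (GFP library 3) to 7310774 (Nfe2l1 library 3), and the other 7 lay between 6479766 and 6782414. The 8 cardiomyocyte markers, a list of sarcomere and other heart muscle genes, summed to 2774 to 3084 CPM (counts scaled to a common library size, here with TMM factors) in GFP, 3007 to 3050 in Nfya and 2709 to 2987 in Nfe2l1, so the labelled cell type was present in all groups. The Nfya transcript, at 80.4 ± 2.19 CPM (SD, n = 3) in GFP, was 89.0 ± 0.68 in the Nfya-labelled and 92.3 ± 2.20 in the Nfe2l1-labelled libraries, while the Nfe2l1 transcript was 241 ± 6.09, 223 ± 4.79 and 239 ± 6.14 CPM in GFP, Nfya and Nfe2l1. The Nfya transcript was higher than in GFP under both viruses and did not differ between them by the test (adjusted p = 0.361). The Nfe2l1 transcript did not differ between Nfe2l1 and GFP by the test (adjusted p = 0.856) and was lower in the Nfya-labelled libraries than in either. The sources used here do not say whether reads of a viral insert would be counted in these rows. The groups are therefore named by their labels throughout.

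Under the Nfya-labelled virus 4 of the 10 genes were lower than under GFP, and none was higher. These were Tfeb (1.39-fold lower), Gabarapl1 (1.23-fold), Sqstm1 (1.22-fold) and Ulk1 (1.19-fold), which act upstream of the lysosome. Becn1 (log2 fold change -0.07) and Map1lc3b (-0.09), which act upstream too, did not differ from GFP by the test. Lamp1, Lamp2, Ctsd and Ctsl each lay within 0.03 log2 units of GFP, with 95% intervals between -0.12 and 0.12. Under the Nfe2l1-labelled virus Ulk1 was 1.24-fold higher, Ctsd 1.17-fold, Lamp2 1.09-fold and Gabarapl1 1.07-fold, and Tfeb was 1.58-fold lower. The viruses thus had Ulk1 and Gabarapl1 on opposite sides of GFP and Tfeb on the same side. Directly compared, the Nfya-labelled libraries were lower than the Nfe2l1-labelled ones for Ulk1 (1.47-fold), Gabarapl1 (1.31-fold), Sqstm1 (1.22-fold), Ctsd (1.18-fold) and Map1lc3b (1.14-fold), and higher for Tfeb (1.14-fold).

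Called genes are those with an adjusted p below 0.05 (Benjamini-Hochberg, over all genes tested) in edgeR's quasi-likelihood test. Calls were common across the whole transcriptome. In the Nfya-labelled libraries 52.2% of all tested genes differed from GFP (24.3% higher and 27.9% lower), beside 4 of these 10. In the Nfe2l1-labelled libraries 58.6% did (28.9% higher and 29.7% lower), beside 5 of the 10. Between both viruses 50.6% of tested genes differed (25.2% higher and 25.4% lower under Nfya), beside 6 of the 10. The shares called among the 10 genes were thus near those of all genes, and the count of called genes is not a result about autophagy. The median log2 fold change of the 10 was -0.08 for Nfya, 0.06 for Nfe2l1 and -0.14 for Nfya against Nfe2l1, beside -0.02, -0.01 and 0.01 over all genes tested. All comparisons against GFP share the same 3 GFP libraries.

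**Figure D1:**
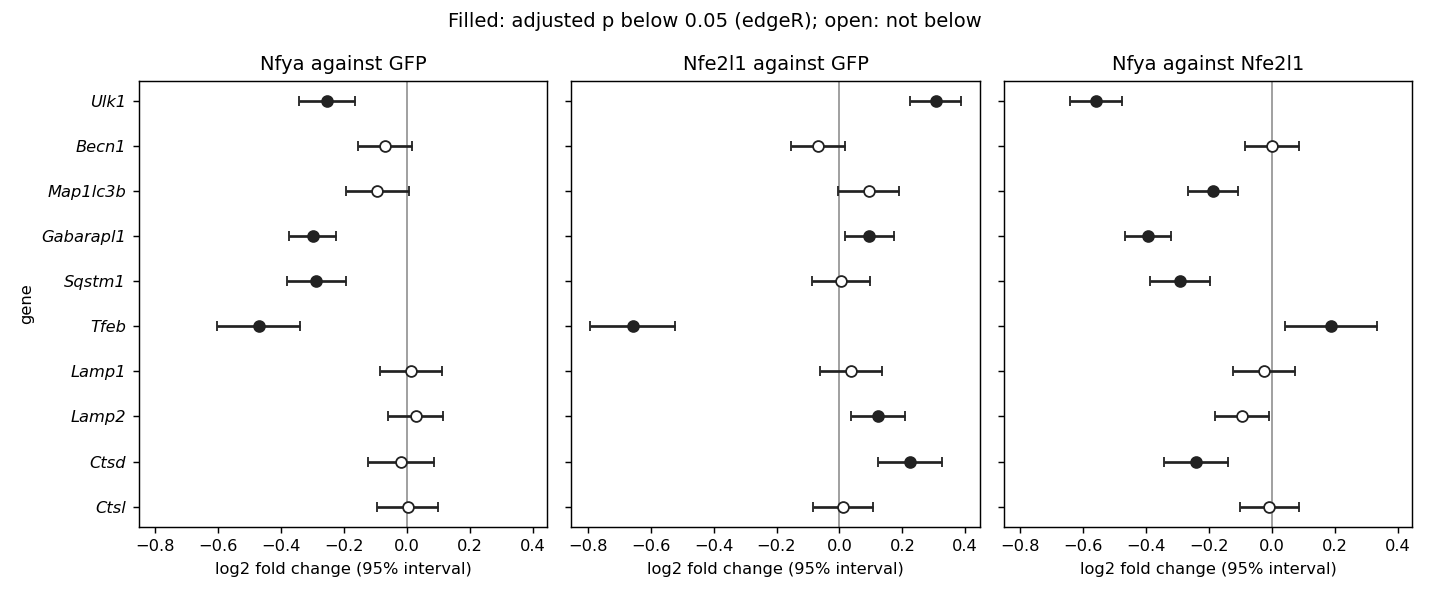
Log2 fold change of each of the 10 genes (x axis, with its 95% interval) in the comparisons of Nfya with GFP, Nfe2l1 with GFP and Nfya with Nfe2l1. Filled points have an adjusted p below 0.05 in edgeR and open points do not. Tfeb lies furthest left under both viruses (-0.47 and -0.66), and Ulk1 lies left of 0 under Nfya (-0.25) and right of it under Nfe2l1 (0.31).

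Levels between genes were compared per length, as RPKM. In GFP the order ran from Sqstm1 (128 ± 5.77 RPKM, SD, n = 3) through Ctsl (108 ± 4.99), Ctsd (101 ± 5.79), Lamp2 (83.6 ± 3.40), Gabarapl1 (73.2 ± 1.23), Lamp1 (61.5 ± 3.49), Map1lc3b (47.3 ± 1.10), Becn1 (41.9 ± 1.23) and Tfeb (30.7 ± 0.51) to Ulk1 (22.0 ± 1.19). Of these neighbours, Ctsl and Ctsd overlapped between libraries and no others did. The cargo receptor and the cathepsins were thus the most abundant of these transcripts per length, and the kinase and the transcription factor the least. In the Nfe2l1-labelled libraries Tfeb (19.4 ± 2.33 RPKM) was below Ulk1 (27.2 ± 0.26), which reversed their order. The Sqstm1, Ctsd and Ctsl levels ran in that order there, with overlap between each and the next. In the Nfya-labelled libraries Ctsl (110 ± 1.63 RPKM) stood above Sqstm1 (106 ± 0.97), and Lamp1 (62.6 ± 0.85) and Gabarapl1 (60.1 ± 1.97) overlapped.

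**Figure D2:**
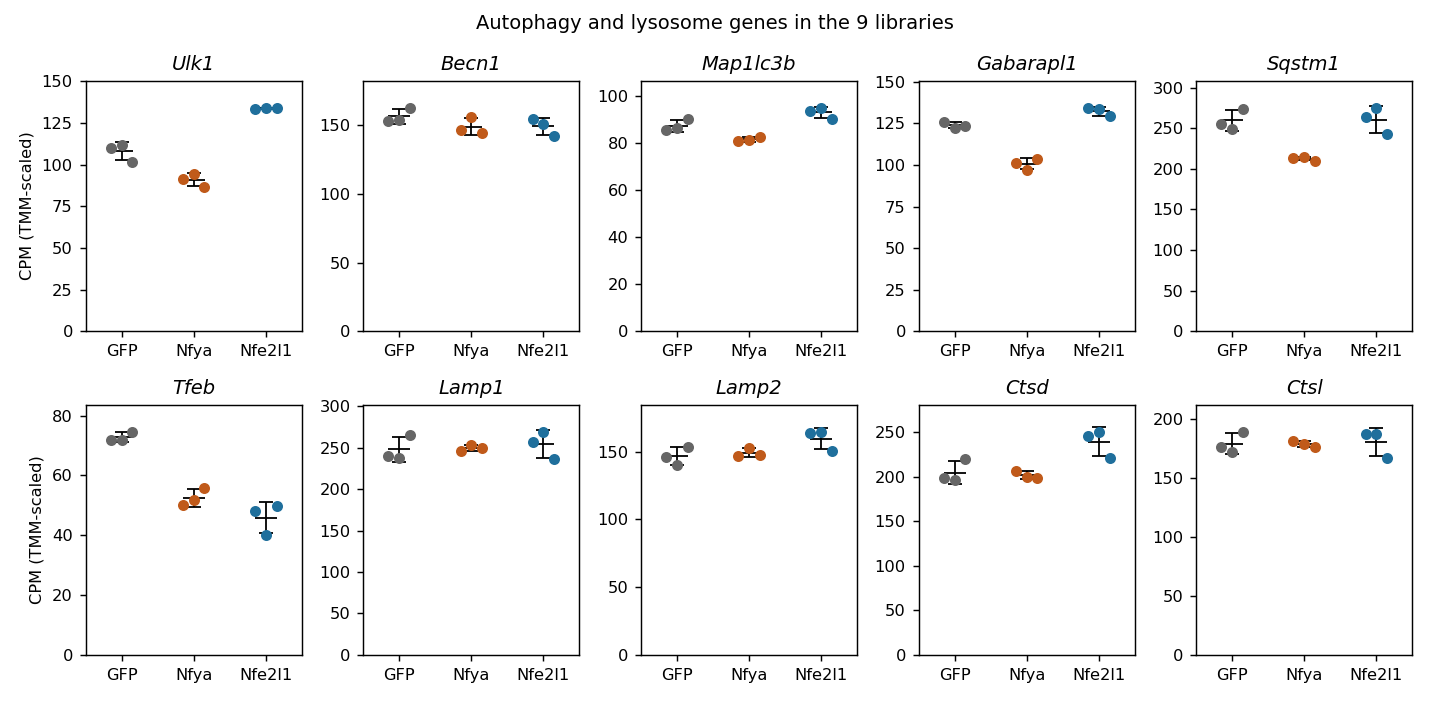
CPM (depth-scaled counts, with TMM factors) of the 10 genes in each of the 9 libraries, 1 panel a gene, with points for libraries 1 to 3 of each virus, a black dash for the mean and bars for the SD. Ulk1 separates the groups fully with Nfe2l1 on top, Sqstm1 and Gabarapl1 are lower in all Nfya-labelled libraries, and Tfeb is lower in the 6 libraries of both factor viruses.

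Ulk1, the kinase that starts autophagosome formation, read 110.2, 112 and 102 CPM in GFP libraries 1 to 3. It read 91.0, 94.5 and 86.8 CPM under Nfya and 133, 134 and 134 CPM under Nfe2l1. No library of one group overlapped another: Nfya was lowest, GFP between and Nfe2l1 highest. The log2 fold change was -0.25 ± 0.04 (SE) for Nfya (adjusted p = 9.44e-05), 0.31 ± 0.04 for Nfe2l1 (adjusted p = 4.32e-06) and -0.56 ± 0.04 for Nfya against Nfe2l1 (adjusted p = 9.51e-09). Becn1, the scaffold of the PI3-kinase complex, read 153, 153 and 163 CPM in GFP, 146, 156 and 144 under Nfya and 154, 151 and 142 under Nfe2l1. All groups overlapped, and no comparison was called. The log2 fold changes were -0.07 for both viruses, with 95% intervals from -0.16 to 0.02 for Nfya and from -0.15 to 0.02 for Nfe2l1.

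Gabarapl1, an ATG8 protein tied to late steps of vesicle formation, read 126, 122 and 124 CPM in GFP. It read 101, 97.1 and 104 CPM under Nfya and 134, 134 and 129 CPM under Nfe2l1, with no overlap between groups. The fall under Nfya was -0.30 ± 0.03 on the log2 scale (adjusted p = 2.52e-06). The higher level under Nfe2l1 was small, 0.09 ± 0.04 (adjusted p = 0.0370), and its call was lost without GFP library 2 (adjusted p = 0.0765), GFP library 3 (0.0678) or Nfe2l1 library 2 (0.0836), and in DESeq2 (0.202). Map1lc3b, which encodes LC3B, had the same order at smaller distances: 85.6, 86.4 and 90.2 CPM in GFP, 81.1, 81.3 and 82.9 under Nfya and 93.9, 95.1 and 90.5 under Nfe2l1. Its libraries did not overlap between any of the groups, as was so for 61.6% of all genes for Nfya, 64.0% for Nfe2l1 and 60.0% between the viruses. Neither virus differed from GFP by the test (log2 fold change -0.09, adjusted p = 0.105, and 0.09, adjusted p = 0.0907), while the viruses differed from each other (-0.19 ± 0.04, adjusted p = 5.18e-04). The Nfe2l1 value was called in 7 of 20 alternatives: without Nfe2l1 library 3 (0.13, adjusted p = 0.0366), with no filter (adjusted p = 0.0234), at a mean of 5 CPM (0.0366), with a coverage ceiling inverted (0.0336), in the 7 libraries of like depth (0.0431) and with limma at either pseudocount. Limma also called the Nfya value.

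Sqstm1, the p62 cargo receptor, read 256, 249 and 274 CPM in GFP. It read 213, 214 and 210.3 CPM under Nfya and 264, 275 and 242 CPM under Nfe2l1. All Nfya-labelled libraries lay below all others, and the GFP and Nfe2l1-labelled ranges overlapped. The log2 fold change was -0.29 ± 0.04 for Nfya (adjusted p = 5.17e-05) and 0.01 ± 0.04 for Nfe2l1 (adjusted p = 0.928, 95% interval -0.09 to 0.10), and -0.29 ± 0.04 between the viruses (adjusted p = 4.18e-05). Over the 9 libraries the tested genes with log2 CPM most like that of Sqstm1 were Psme4 (Pearson r = 0.993), which encodes a proteasome activator, Dmpk (0.991), a muscle protein kinase gene, and Ankrd13a (0.990), a ubiquitin-binding protein gene. Mean Psme4 was 657 CPM in GFP, 535 under Nfya and 669 under Nfe2l1. These 9 points share their libraries and depths with Sqstm1, and 75 genes reached an r above 0.95.

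Tfeb, the lysosomal master transcription factor, read 71.9, 71.8 and 74.7 CPM in GFP. It read 49.96, 51.7 and 55.6 CPM under Nfya and 48.0, 40.0 and 49.6 CPM under Nfe2l1. All 6 factor-virus libraries lay below all GFP libraries. The log2 fold change was -0.47 ± 0.06 for Nfya (adjusted p = 1.02e-05) and -0.66 ± 0.06 for Nfe2l1 (adjusted p = 2.54e-07). Nfya was called above Nfe2l1 (0.19 ± 0.07, adjusted p = 0.0319), but without Nfe2l1 library 2, the lowest of the 9, that difference was 0.10 (adjusted p = 0.255). It was also not called without Nfya library 2 (adjusted p = 0.0603) or Nfya library 3 (0.151), nor in DESeq2 (0.122). The tested genes most like Tfeb over the 9 libraries were AABR07068285.2 (r = 0.985), Kit (0.984), which encodes the stem cell factor receptor, and Fbxl21 (0.984), an F-box protein gene, and 184 genes exceeded 0.95.

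Ctsd, the aspartic protease cathepsin D, read 198, 196 and 219 CPM in GFP. It read 206, 199.7 and 199 CPM under Nfya and 246, 250.5 and 220.3 CPM under Nfe2l1. The Nfe2l1-labelled libraries lay above all others, with library 3 only just above GFP library 3. The log2 fold change was 0.22 ± 0.05 for Nfe2l1 (adjusted p = 7.87e-04), -0.02 for Nfya (adjusted p = 0.800) and -0.24 ± 0.05 between the viruses (adjusted p = 5.12e-04). Lamp2, the Danon disease gene, read 146, 140.2 and 153 CPM in GFP, 147, 153 and 148 under Nfya and 164, 165 and 151 under Nfe2l1. The Nfe2l1 and GFP ranges overlapped. Its log2 fold change for Nfe2l1 was 0.12 ± 0.04 (adjusted p = 0.0163), and the call was lost without GFP library 2 (adjusted p = 0.0672), without Nfe2l1 library 2 (0.0674) and in DESeq2 (0.0731). Between the viruses its difference was -0.10 (adjusted p = 0.0605), which 6 of 20 alternatives called. Lamp1 read 241, 238 and 266 CPM in GFP, 246, 253 and 250.1 under Nfya and 257, 269 and 237 under Nfe2l1. Ctsl, a cysteine protease, read 176, 172 and 189 CPM in GFP, 181, 179 and 176 under Nfya and 187, 187 and 167 under Nfe2l1. For both genes all groups overlapped and no comparison was called, with 95% intervals for Nfe2l1 against GFP from -0.06 to 0.14 (Lamp1) and from -0.09 to 0.11 (Ctsl).

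The lysosomal genes and Sqstm1 also differed between the shallowest and the deepest library of GFP and of Nfe2l1. The shallowest GFP library (3) read higher than the deepest (2) by 0.14 log2 units for Sqstm1, 0.16 for Lamp1 and Ctsd, 0.14 for Ctsl and 0.13 for Lamp2, while their totals differed by 0.25 log2 units. Among the Nfe2l1-labelled libraries, library 2 and the deepest, library 3, differed by 0.17 log2 units in their totals. Library 2 against library 3 gave 0.18 for Sqstm1, 0.19 for Lamp1 and Ctsd, 0.17 for Ctsl and 0.13 for Lamp2. The Nfya-labelled libraries, whose totals differed by 0.04, gave 0.05 or less in size for each of these 5. These genes had many counts per base of gene length: 0.787 for Sqstm1 (above 99.5% of tested genes), 0.713 for Ctsl, 0.695 for Ctsd, 0.569 for Lamp2 and 0.407 for Lamp1, beside 0.158 for Tfeb and 0.149 for Ulk1. Gabarapl1, with 0.462 counts per base, was an exception, and differed by only 0.02 in GFP and 0.05 in Nfe2l1. Tfeb differed by 0.06 in GFP and by -0.31 in Nfe2l1. Over all genes with a mean of at least 200 counts, the median difference between shallow and deep library was 0.12 in GFP and 0.13 in Nfe2l1 for genes of at least 0.5 counts per base. It was -0.10 and -0.08 for genes under 0.1 counts per base. The GFP and Nfe2l1-labelled groups hold the shallowest and the deepest library. Depth cannot be told apart here from other properties of those libraries, and its part in the comparison between the groups was not tested.

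In the 7 libraries of like depth, without GFP library 3 and Nfe2l1 library 3 (a choice made after seeing the data), the Nfe2l1-labelled libraries had 8 of the 10 genes higher and Tfeb lower, where 26.3% of 14308 tested genes were higher and 26.4% lower. Sqstm1 (0.10, adjusted p = 0.0129), Lamp1 (0.14, adjusted p = 8.56e-04), Ctsl (0.11, adjusted p = 0.0237) and Map1lc3b (0.14, adjusted p = 0.0431) were then called, Ctsd rose to 0.33, and Becn1 was at -0.01. For Nfya the same 4 genes were lower in these 7 libraries (Ulk1 -0.29, Gabarapl1 -0.30, Sqstm1 -0.25, Tfeb -0.45), and none was higher, where 26.9% of tested genes were lower and 22.2% higher. Between the viruses 7 of the 10 were then lower and Tfeb higher under Nfya, where 24.6% of tested genes were lower and 23.3% higher. An inversion of an assumed ceiling of 1.6 counts per base in all 9 libraries gave -0.38 for Sqstm1 under Nfya and 0.33 for Ctsd under Nfe2l1. The sizes of the Sqstm1 and cathepsin D differences are therefore less certain than their errors. Their directions held in the 7 libraries of like depth. The inversion raises the values of dense genes and so could hardly turn these directions, which makes it no check of them.

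**Figure D3:**
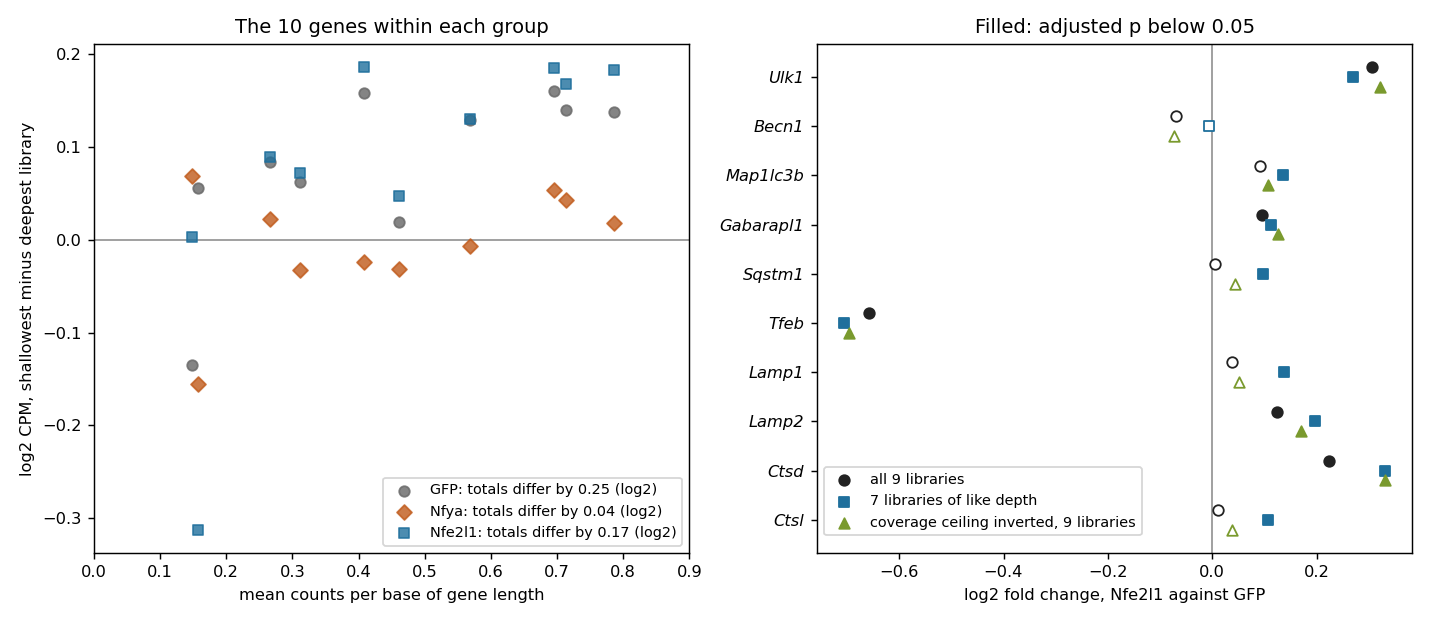
Left, each gene's log2 CPM in the shallowest minus the deepest library of a group (y axis) against its mean counts per base (x axis), coloured by virus. Right, log2 fold change of Nfe2l1 against GFP in all 9 libraries, in the 7 of like depth and with an assumed coverage ceiling inverted, filled where the adjusted p is below 0.05. Genes above 0.4 counts per base lie above 0 for GFP and Nfe2l1, and Sqstm1, Lamp1 and Ctsl are filled only in the 7 libraries.

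A further 135 genes of the pathway were listed in 11 roles, apart from the 10 above, of which 129 were in the count table and 125 were tested. Nfya had 38 higher and 32 lower, 56.0% called beside 52.2% of all genes tested (24.3% higher and 27.9% lower), with a median log2 fold change of 0.01. Split into lysosomal and autophagy roles, a division made after the values were seen, the directions differed. Of 52 genes of the lysosome 27 were higher and 5 lower (median 0.11). The 18 of these in lysosomal membrane and sorting had 6 higher and 3 lower, with a median of 0.0008. Of 73 genes of autophagosome formation, cargo, fusion and regulation 11 were higher and 27 lower (median -0.07). Nfe2l1 had 56 higher and 18 lower (median 0.08), a called share of 59.2% that was near the 58.6% of all genes tested (28.9% higher and 29.7% lower). These comprised 23 higher and 10 lower of the lysosomal and 33 higher and 8 lower of the autophagy genes. Between the viruses the autophagy genes were mostly lower under Nfya (37 of 73, with 6 higher, beside 25.4% and 25.2% of all genes). Of the genes described above, Ulk1, Gabarapl1, Map1lc3b and Sqstm1 were lower there too, while Becn1 was not called and Tfeb was higher. In the 7 libraries of like depth the Nfya counts were 24 higher and 4 lower for the lysosomal and 12 higher and 25 lower for the autophagy genes, where 22.2% of all genes were higher and 26.9% lower. With DESeq2 they were 18 and 2, and 11 and 17, where 18.4% of all genes were higher and 17.6% lower. For Nfe2l1 the 7 libraries gave 23 higher and 9 lower lysosomal genes, and 32 higher and 7 lower autophagy genes. There 26.3% of all genes were higher and 26.4% lower. With DESeq2 the Nfe2l1 counts were 18 and 8, and 24 and 4. The counts by role that follow are read beside the same all-gene shares, and a role of few genes that lies near them is no result about the role.

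**Figure D4:**
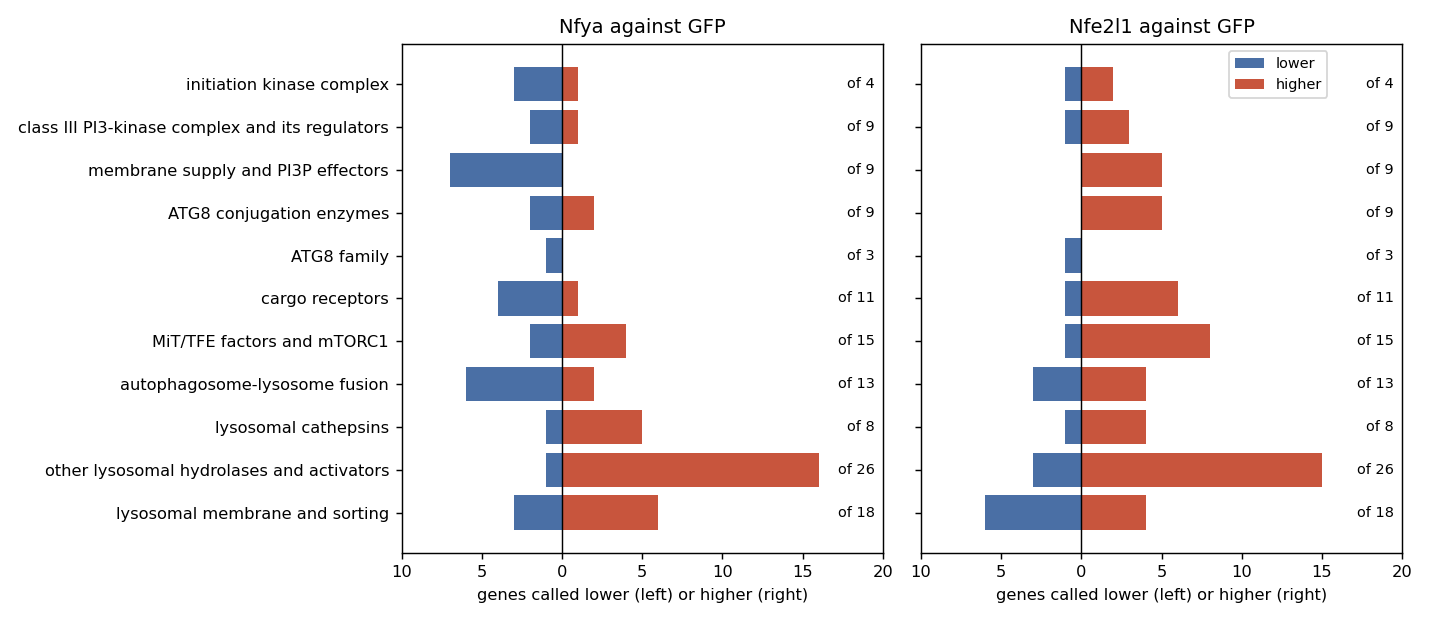
Number of genes called lower (bars to the left) and higher (bars to the right) in each of the 11 roles of the pathway list, for Nfya and Nfe2l1 against GFP, with the number tested at the right of each row. Lysosomal hydrolases are mostly to the right under both viruses (16 and 15 of 26), and the membrane supply genes lie to the left under Nfya (7 of 9) and to the right under Nfe2l1 (5 of 9).

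Among genes of autophagosome formation, 3 of 4 other genes of the initiation kinase complex were lower under Nfya, with the smallest p for Rb1cc1, the FIP200 scaffold (-0.35 ± 0.03, adjusted p = 8.65e-08), while the ULK1 relative Ulk2 was higher (0.21 ± 0.03). Under Nfe2l1 2 of the 4 were higher and 1 lower. Rb1cc1 was higher by 0.08 (adjusted p = 0.0279, not called in DESeq2). Ulk2 was higher by 0.13 ± 0.04 (not called in DESeq2, adjusted p = 0.0848, or in the 7 libraries of like depth, 0.0581). Atg101, a subunit that binds Atg13, was lower (-0.27 ± 0.04, adjusted p = 4.73e-05). Atg101 was at -0.27 ± 0.04 under Nfya too. Of 9 membrane supply genes and PI3P effectors, 7 were lower under Nfya (27.9% of all genes were), with the smallest p for Wdr45 (-0.26 ± 0.04), a WIPI-family PI3P binder. With DESeq2 5 of these 9 were lower under Nfya (17.6% of all genes), and in the 7 libraries of like depth 5 as well (26.9% of all genes). None of these 9 was lower under Nfe2l1, and 5 were higher (28.9% of all genes were), with the smallest p for Tmem41b (0.51 ± 0.04, adjusted p = 5.16e-09), a lipid scramblase of the endoplasmic reticulum. The ATG8 conjugation enzymes split 2 higher and 2 lower of 9 under Nfya, with Atg10 at 0.69 ± 0.09 and Atg12, the ubiquitin-like modifier, at -0.32 ± 0.04. Under Nfe2l1 5 of these 9 were higher and none lower. The protease gene Atg4d had the smallest p (0.22 ± 0.04), and Atg10 (0.45 ± 0.09) and Atg4c (0.42 ± 0.09, named after its values were seen) had larger changes. In the PI3-kinase group Atg14, the autophagy-specific subunit, was 1.39-fold higher under Nfe2l1 (0.48 ± 0.05) and Nrbf2 lower (-0.52 ± 0.09), while Nfya had the Beclin 1 inhibitor Bcl2 higher (0.48 ± 0.08) and Ambra1 lower (-0.20 ± 0.03).

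Of the 3 other ATG8 genes tested, Map1lc3a was lower under both viruses (-0.17 and -0.22), with no call in the 7 libraries of like depth (adjusted p = 0.0539 and 0.0532). Of 20 alternatives, 3 lost its call under Nfya and 1 under Nfe2l1. Among 11 cargo receptors other than Sqstm1, 4 were lower and 1 higher under Nfya, and 1 lower and 6 higher under Nfe2l1. The 4 of 11 lower under Nfya are near the 27.9% of all genes, and the 6 of 11 higher under Nfe2l1 stand beside 28.9%. With DESeq2 only 3 of the 11 were higher under Nfe2l1, and none lower. In the 7 libraries of like depth 6 were higher under Nfe2l1, where 26.3% of all genes were higher. The mitophagy receptor Bnip3l was higher under both (0.20 ± 0.03 and 0.31 ± 0.03). Its relative Bnip3 was lower under Nfya (-0.23 ± 0.05) and higher under Nfe2l1 (0.16, adjusted p = 0.0149). The ferritin receptor Ncoa4 was lower under Nfe2l1 by 0.10, a call lost in 10 of 20 alternatives, among them the 7 libraries (-0.04, adjusted p = 0.432). Of the fusion genes, Snap29, a SNARE, was lower under Nfya (-0.39 ± 0.03, adjusted p = 1.37e-07) and Nfe2l1 (-0.15 ± 0.03, not called in DESeq2, adjusted p = 0.0557), and the tethering factor Tecpr1 was higher under both (0.17 ± 0.04 and 0.59 ± 0.04). Beside Tfeb, the MiT/TFE and mTORC1 genes were 4 higher and 2 lower of 15 under Nfya, and 8 higher and 1 lower under Nfe2l1. For Nfya this is near the 24.3% of all genes higher, with a smaller share called (40.0%) than among all genes (52.2%). For Nfe2l1 28.9% of all genes were higher. The folliculin partner Fnip2 was 1.67-fold higher under Nfya (0.74 ± 0.06) and also higher under Nfe2l1 (0.38). Rptor, which encodes the mTORC1 subunit Raptor, was 1.54-fold higher under Nfe2l1 (0.63 ± 0.04) and also higher under Nfya (0.18). Rragd, a Rag GTPase gene, was lower under both viruses (-0.27 ± 0.05 and -0.38 ± 0.05).

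Among lysosomal genes, 5 of the 8 other cathepsins were higher and 1 lower under Nfya, and 4 higher and 1 lower under Nfe2l1, where 24.3% and 28.9% of all genes were higher. With DESeq2 only 2 of these 8 were higher and none lower under Nfya, where 18.4% of all genes were higher. In the 7 libraries of like depth 4 were higher and 1 lower under Nfya, where 22.2% of all genes were higher. Ctsk, the collagen-degrading cathepsin K, rose 2.66-fold under Nfya, from 10.1 ± 2.27 to 27.1 ± 0.57 CPM (1.41 ± 0.12, adjusted p = 7.12e-08), and was 0.82 higher under Nfe2l1. Ctsf rose under Nfe2l1 (0.60 ± 0.04, adjusted p = 3.35e-09) and by 0.16 under Nfya. Ctsh fell under Nfe2l1 (-0.26 ± 0.04). Ctsc was lower under Nfya (-0.15 ± 0.05), a call lost in 8 of 20 alternatives, DESeq2 among them (adjusted p = 0.162). Of 26 other hydrolases and activators, 16 were higher and 1 lower under Nfya, and 15 higher and 3 lower under Nfe2l1, beside the same shares. The carboxypeptidase gene Scpep1 had the smallest p among those higher under both (0.77 ± 0.04, from 65.4 ± 2.12 to 112 ± 1.13 CPM, and 0.97 ± 0.03, to 128 ± 0.36 CPM), and the sulfatase gene Arsb, named after its values were seen, was as high under Nfya (0.78 ± 0.04). Gaa, the acid glucosidase of Pompe disease, was the lower gene under Nfya (-0.09, adjusted p = 0.0385), a call lost in 16 of its alternatives. Under Nfe2l1 Gaa was higher (0.46, adjusted p = 9.01e-09), and Arsa was lower (-0.23 ± 0.05). Of 18 genes of the lysosomal membrane and sorting, 6 were higher and 3 lower under Nfya, and 4 higher and 6 lower under Nfe2l1. Among all genes 24.3% and 28.9% were higher and 27.9% and 29.7% lower. The calcium channel gene Mcoln1 was higher under both viruses (0.33 ± 0.05 and 0.26 ± 0.05). The ATPase gene Atp13a2 was lower under Nfya (-0.53 ± 0.06, adjusted p = 8.77e-07) and Nfe2l1 (-0.24, adjusted p = 9.92e-04). The sorting receptor Sort1 was lower under Nfe2l1 (-0.39 ± 0.03, adjusted p = 9.51e-09) and Nfya (-0.26, adjusted p = 1.45e-06).

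Markers of other cell types also differed between the groups, not all in the same direction. The 8 fibroblast markers summed to 1030 to 1099 CPM in GFP, 1931 to 1952 under Nfya and 1628 to 1757 under Nfe2l1, and all 8 were called higher under each virus. The 9 macrophage markers found summed to 67.2 to 85.95 CPM in GFP, 87.7 to 95.3 under Nfya and 96.6 to 108 under Nfe2l1, with Cd163 at 0 in the Nfe2l1-labelled libraries, and of the 7 tested 3 were higher and 1 lower under each virus. The endothelial markers summed to 277 to 288, 350 to 363 and 391 to 406 CPM, the epicardial markers to 17.7 to 24.97, 75.1 to 87.7 and 95.3 to 114 CPM, and the smooth muscle markers to 967 to 979, 1054 to 1073 and 740 to 762 CPM, in the same order of groups. Of the 6 endothelial markers tested 4 were higher and 1 lower under each virus. The lower one was Kdr, a VEGF receptor gene, named after its values were seen, at 163 ± 2.98 CPM in GFP, 77.0 ± 1.25 under Nfya and 90.0 ± 5.13 under Nfe2l1. All 5 epicardial markers were higher under each virus, and of the 6 smooth muscle markers tested 4 were higher and 1 lower under Nfya, and 1 higher and 3 lower under Nfe2l1. Their part in the cathepsin, hydrolase and Tfeb values was not tested, and in these bulk samples fewer cells of a type and less RNA per cell cannot be told apart. Promoter windows were held for 40 of the lysosomal and 64 of the autophagy genes of the list. CACGTG was found in 22.5% (9 genes) and 17.2% (11) of them, beside 6.42% of all windows. CCAAT was found in 45% (18) and 34.4% (22), beside 37.5%, and TGACNNNGC in 17.5% (7) and 18.8% (12), beside 12.1%. Lysosomal genes with and without CACGTG had median log2 fold changes of 0.11 and 0.11 for Nfya, and of 0.10 and 0.15 for Nfe2l1. Autophagy genes with and without CACGTG were at -0.14 and -0.06 for Nfya, and at 0.05 and 0.06 for Nfe2l1. For CCAAT the medians with and without were 0.12 and 0.07 (lysosomal, Nfya), 0.15 and 0.06 (lysosomal, Nfe2l1), -0.07 and -0.08 (autophagy, Nfya) and 0.15 and 0.05 (autophagy, Nfe2l1). For TGACNNNGC they were 0.13 and 0.11, 0.15 and 0.10, 0.03 and -0.08, and 0.11 and 0.06, in the same order. None of these medians was tested.

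In the authors' deposited table, made with edgeR in a fit of each virus against GFP, the adjusted p-value was below 0.05 for the same 4 genes under Nfya, with Tfeb at -0.43, Gabarapl1 at -0.26, Sqstm1 at -0.25 and Ulk1 at -0.22. For Nfe2l1 the authors' deposited table gives an adjusted p of 0.0562 for Gabarapl1, 0.0231 for Lamp2 and 1.71e-04 for Ctsd, and a log2 fold change of -0.66 for Tfeb and 0.31 for Ulk1.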

How the data were processed

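Poly(A) RNA libraries were made with a stranded kit, per the labels' protocols. The authors deposited whole-number counts per gene symbol and RPKM values with gene lengths. They also deposited edgeR tables of each virus against GFP, whose log2 fold changes and p-values are used only where named, and whose likelihood-ratio score, per the file headers, was not used. The submitters' processing notes name FastQC 0.11.4, featureCounts 1.6.0, edgeR 3.20.5 and builds of rat (rn6) and mouse (mm10, GRCm38). For the aligner, strand setting and treatment of duplicate reads: not given in the sources used here. Antisense and overlapping genes may therefore share reads.

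Counts were tested with edgeR 4.0.16 in R 4.3.3: filterByExpr, TMM scaling, 1 quasi-likelihood fit of the 9 libraries (no term other than group), and Benjamini-Hochberg adjustment over 14151 genes. The standard error is the one that gives the reported p. CPM values use TMM-scaled totals. At 5712123 to 7310774 counts a library, tested genes held 99.8% of counts. The script was tested on simulated data. Alternatives used RLE factors, other filters (none, or a mean of 5 CPM), only the 6 libraries compared, a replicate block, DESeq2 1.42.0, limma 3.58.1 on log2(RPKM + 0.5) or log2(RPKM + 0.1), an adjusted p below 0.01, each library left out, and a ceiling of 1.6 counts per base. 2 more (7 libraries of like depth, and the Nfya libraries summed to 1 sample) were added after seeing the data. The pairs of Nfya-labelled libraries differed by no more than sampling noise over all tested genes (chi-square per degree of freedom 0.979 to 1.02). Over genes of at most 0.1 counts per base they differed beyond it, as in the other groups (1.22 to 1.36). Separate libraries of the same cells could differ in this way too, so the check does not show that they are independent. Each was kept as 1 sample. RefSeq promoters were searched with Python 3.11.15 and pandas 2.3.3, and figures drawn with matplotlib 3.10.9.

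The 10 genes, the pathway and marker lists and the motifs were chosen with earlier results of these data known. Named beside the 10 genes and the viruses' own genes are, per role and virus, the called pathway gene with the smallest p in each direction, and the 3 tested genes with the highest Pearson r to Sqstm1 and to Tfeb.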

Additional observations from a re-analysis of the deposited data

How the results depend on the processing

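The calls of Ulk1, Sqstm1 and Tfeb for Nfya against GFP, of Gabarapl1 there, and of Ulk1, Tfeb and Ctsd for Nfe2l1 against GFP kept their direction and stayed below an adjusted p of 0.05 in all 20 alternatives run for each gene. Sqstm1 ranged from -0.38 to -0.25 under Nfya, and Tfeb from -0.52 to -0.43 under Nfya and from -0.71 to -0.57 under Nfe2l1. The count of the 10 genes called higher under Nfe2l1 (4) was 2 with DESeq2, 2 at an adjusted p below 0.01, 8 in the 7 libraries of like depth, and 2 to 5 with 1 library left out. The count higher under Nfya than Nfe2l1 (1) was 0 with DESeq2, 0 at an adjusted p below 0.01, 0 with the Nfya libraries summed, and 0 to 1 with 1 library left out. DESeq2 called 19 pathway genes lower under Nfya (32 in edgeR), 2486 of all genes lower under Nfya (3953) and 2392 lower under Nfya than Nfe2l1 (3597). The causes were not tested.

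Signs turned among values that were not called. Ctsd for Nfya (-0.02) was 0.012 with no filter, 0.022 at a mean of 5 CPM, 0.018 in the 6 libraries compared, 0.031 in the 7 of like depth and from -0.034 to 0.032 with 1 left out. Ctsl for Nfya (0.002) was -0.0012 with the Nfya libraries summed and from -0.0085 to 0.041 with 1 left out. With 1 library left out, Nfe2l1 against GFP ranged from -0.034 to 0.070 for Sqstm1, from -0.0044 to 0.10 for Lamp1 and from -0.017 to 0.081 for Ctsl. For Nfya against Nfe2l1, Becn1 (-0.001) was 0.0069 with RLE factors, 0.0060 with DESeq2, 0.020 at a mean of 5 CPM, 0.00080 in the 6 libraries, 0.017 with limma at either pseudocount and from -0.036 to 0.041 with 1 left out. Lamp1 there ranged from -0.055 to 0.016 with 1 left out, and Ctsl (-0.008) was 0.013 at a mean of 5 CPM, 0.011 with limma at either pseudocount and from -0.043 to 0.036 with 1 left out.

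The replicate numbers gave no sign of a pairing: same-numbered libraries of different viruses correlated between -0.36 and 0.07 in their deviations. The lowest value joined the shallowest and the deepest library, so a pairing hidden by depth cannot be told apart from none. The fit with the replicate block changed no call of the 10 genes (Tfeb -0.48 under Nfya and -0.67 under Nfe2l1) and gave 30 pathway genes lower under Nfya, beside 32. Scaling and filter choices moved the median of all genes by at most 0.04 log2. At these depths the 95% intervals of those of the 10 genes that were not called reached at most 0.10 log2 units on either side of their values.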
